A study of Vernicia fordii with 6 samples.

Results

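Of the 56065 unigenes (assembled transcripts) of the tung tree (Vernicia fordii), 155 carried the name of a protease or nuclease family that is tied to plant cell death. They were taken by the protein name of their best SwissProt match, which 20038 unigenes had. Names with metacaspase, vacuolar-processing enzyme, cysteine or thiol protease, subtilisin-like, aspartic protease or a numbered endonuclease were kept, and protease inhibitors were left out. The 155 comprised 66 subtilisin-like proteases, 52 aspartic proteases, 16 papain-like cysteine proteases, 8 metacaspases, 5 vacuolar-processing enzymes, 4 S1/P1 endonucleases, 2 flap endonucleases and 2 other cysteine proteases. RNA came from male and female flower buds at stage 7, picked from the same plant of 4-year old trees of the cultivar Duisuitong, with 3 pooled samples of each sex. The trees carried no treatment or transgene. The study asked what makes the flowers unisexual, and followed cell death in the aborted stamens of female flowers at later stages by microscopy, whereas these libraries were made at stage 7. In such bulk samples, fewer cells of a type and less RNA per cell cannot be told apart.

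Plants lack true caspases, and their cell death runs largely through the vacuole. Its collapse releases vacuolar proteases and nucleases, such as vacuolar-processing enzymes, papain-like proteases and S1/P1 nucleases, which digest the cell from inside, while metacaspases act in the cytosol and subtilisin-like proteases mostly outside the cell. In anthers, death of the tapetum, the layer that feeds the microspores, is part of normal pollen development, and in female flowers of many unisexual species stamens arrest or die. Membership rests on names only: most of these families also serve protein turnover in living cells, and flap endonuclease acts in DNA replication.

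Reads counted on unigenes summed to 11467832 (female replicate 3) to 40385019 (female replicate 2) in a library. Both totals lie outside the range of clean reads per sample that the study gives. Scaling factors from the trimmed mean of M-values (TMM) were 0.319 and 1.86 for these libraries, so that 1 read on a unigene of 1 kb was worth 0.274 in female replicate 3 and 0.0136 in female replicate 2. Levels are given as TMM-scaled RPKM, that is RPKM computed with the scaled library total, in the order of replicates 1, 2 and 3. Female replicate 3 stood apart: 5 unigenes took 54.9% of its reads, against 1.12% to 36.9% in the other libraries. Between whole libraries, female replicate 3 correlated by 0.824 with male replicate 3 and by 0.813 with male replicate 2. Its correlations with female replicates 1 and 2 were lower, at 0.800 and 0.796, and that with male replicate 1 was lowest, at 0.763. Female replicates 1 and 2 correlated with each other by 0.940. Why female replicate 3 lay closer to these male libraries was not tested. The male label was checked against 28 unigenes named after pollen proteins, whose summed level was 1517, 1992 and 1877 in male flowers, against 205, 165 and 315 in female flowers. In the study's staging, male stamens were still primordia at stage 7 and meiosis came at a later stage. Whether the reads of these pollen-named unigenes came from pollen was not tested. Of the 14 tapetum and pollen wall genes, 12 were tested and none was called, with sums of 230, 286 and 249 in male flowers, against 283, 209 and 235 in female flowers.

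The summed level of the members did not separate the sexes, and a few unigenes carried most of it. The 155 members summed to 2924, 3814 and 5050 TMM-scaled RPKM in male flowers, against 2388, 2724 and 5449 in female flowers. Female replicate 3 had the highest sum of all samples, but the lowest in RPKM as deposited, where the sums were 2351, 5184 and 4420 in male flowers, against 4075, 4966 and 1733 in female flowers. The mean was 3929 ± 1068 in male and 3520 ± 1679 in female flowers (SD, n = 3 each), and an exact two-sided permutation test gave p = 0.70 (0.60 on deposited RPKM), where the smallest p that 3 against 3 allows is 0.10. The 10 highest unigenes stood for 61.4% of the summed level, 53 of the 155 averaged over 10 TMM-scaled RPKM, and 44 averaged under 1.

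The highest levels belonged to vacuolar enzymes. An aleurain-like thiol protease (contig_68), a vacuolar papain-like enzyme, had 170, 517 and 713 TMM-scaled RPKM in male flowers, against 135, 153 and 518 in female flowers. An RD19a-like cysteine proteinase (contig_1771), named after a drought-induced gene of Arabidopsis, had 218, 309 and 556 in male flowers, against 82.7, 120 and 753 in female flowers. A vacuolar-processing enzyme (contig_55) had 152, 393 and 564 in male flowers, against 108, 254 and 496 in female flowers. In all 3 the sexes overlapped, the lowest male value was in replicate 1 and the highest female value in replicate 3. Between samples of the same number, contig_68 and contig_55 were higher in the male sample in all 3 pairs, and contig_1771 in 2 of 3. Among the 20 tested members with the highest mean level, female replicate 3 was the highest female sample in 18 (90.0%), against 51.8% of the 114 tested members and 35.0% of all unigenes tested. In RPKM as deposited it was the lowest female sample in 17 of the 20, so its place rests on the TMM factor. Male replicate 1 was the lowest male sample in 13 of the 20 (65.0%), against 49.1% of the tested members and 40.2% of all unigenes tested. In RPKM as deposited it was the lowest male sample in 18 of the 20.

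**Figure D1:**
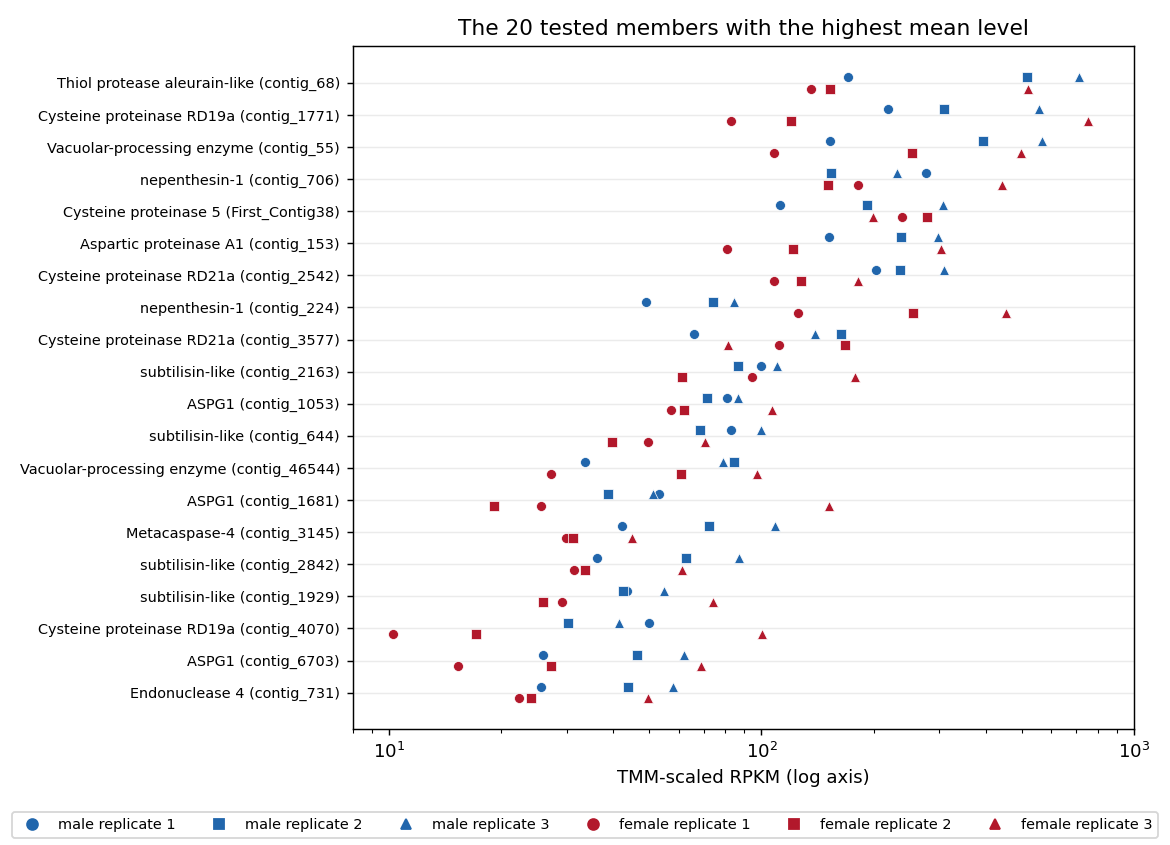
Level of the 20 tested members with the highest mean, in TMM-scaled RPKM on a log axis, 1 row for each unigene, with the 3 male samples in blue above the 3 female samples in red and a marker for each replicate number. Female replicate 3 (red triangle) is the highest female sample in 18 of the 20 rows, and the sexes overlap in 18 rows.

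Between the sexes, a nepenthesin-1-like aspartic protease (contig_36489) was higher in male flowers, and no other member passed the test. Nepenthesins are secreted aspartic proteases named after the pitcher fluid of Nepenthes. Its level was 55.8, 20.7 and 32.2 in male flowers, against 1.62, 1.38 and 0.326 in female flowers. Every male sample lay far above every female sample. The difference was 4.89 on the log2 scale (SE 0.62), a 29.6-fold higher level in male flowers, with an adjusted p of 0.0062 (quasi-likelihood test of edgeR, adjusted by Benjamini-Hochberg over all unigenes tested). It kept its call with each library left out, with log2 differences of 4.58 to 5.28 and adjusted p of 0.0064 to 0.045. Of the pollen-named genes given above, 22 were tested and 7 were called (31.8%, against 1.70% of all tested). All 7 were higher in male flowers (6 to 10 called with a library left out). Within male flowers, contig_36489 was highest in replicate 1, where the sum of the pollen-named genes was lowest. Of 3 unigenes named after the pollen allergen Ole e 6, 2 had no read in any female sample, and contig_53712 had 0, 3 and 7 reads in male flowers, against 2, 13 and 0 in female flowers. A unigene named after the pollen allergen Bet v 1 (contig_22080) had 0 reads in male flowers, against 150, 328 and 3 in female flowers. The part of pollen in the level of contig_36489 was not tested.

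Of the 155 members, 114 passed the filter on low counts. Calls required a fold difference of at least 2 besides an adjusted p under 0.05, and were made for 1 of 114 (0.877%), against 1.70% of the 29327 unigenes tested. Higher in male flowers was that 1 member, against 1.56% of all tested, and none was called higher in female flowers, against 0.143%. An unadjusted p under 0.05 was reached by 12 members (10.5%), against 13.2% of all tested. DESeq2 called 7 of the 155, against 3.13% of all unigenes. Among its calls were contig_38774 and contig_38635, which the filter left out and which were read mainly in male replicate 1. The median log2 difference was 0.06 over the members and -0.09 over all unigenes tested, and 95 of the 114 lay within 1 on the log2 scale. The sexes did not overlap in 18 members (15.8%), against 19.4% of all tested. Male flowers were above in 12 of them, against 10.4% of all tested, and female flowers in 6, against 9.06%. With RPKM as deposited, without TMM, 7 members did not overlap, against 4.74% of all tested. Since samples of the same number may be paired, the direction within the 3 pairs was also counted, without a test. Of the 114 members, 26 were higher in the male sample of every pair, against 19.5% of all tested, and 18 in the female sample of every pair, against 19.4%. In RPKM as deposited these were 11 members, against 6.56% of all tested, and 5 members, against 8.44%. Summed over a class, the male sample was higher in all 3 pairs for metacaspases, vacuolar-processing enzymes, papain-like proteases and S1/P1 endonucleases, and in 2 of 3 pairs for each of them in RPKM as deposited.

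**Figure D2:**
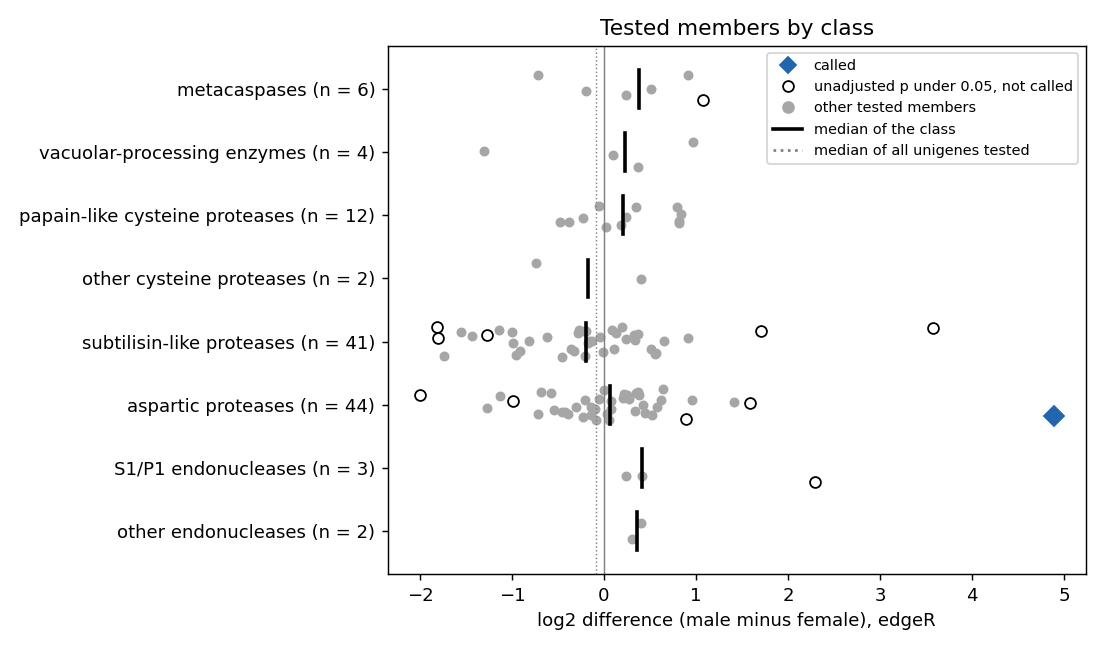
Log2 difference (male minus female) of the 114 tested members by class, each point a unigene, with the median of each class as a bar and the median of all unigenes tested (-0.09) as a dotted line. The called member (diamond) stands at 4.89, and 11 others with an unadjusted p under 0.05 (open circles) lie between -2.0 and 3.58.

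Metacaspases are cysteine proteases of the cytosol that cut after arginine or lysine. None of the 6 tested was called, and their median log2 difference was 0.38. The most abundant matched Metacaspase-4 (contig_3145), which in Arabidopsis promotes cell death under stress. It had 42.3, 72.2 and 108.6 TMM-scaled RPKM in male flowers, against 29.9, 31.2 and 44.8 in female flowers. Male replicate 1 lay just below female replicate 3, and the other male samples lay above every female sample. The log2 difference was 1.08 (SE 0.42) with an adjusted p of 0.34 by edgeR's quasi-likelihood test.

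The other 5 tested metacaspases averaged under 10 TMM-scaled RPKM in either sex. A unigene matching Metacaspase-9 (contig_27024), in Arabidopsis an enzyme of the clearing of dead xylem cells, had 1.45, 4.42 and 3.43 in male flowers, against 1.99, 2.22 and 0.414 in female flowers. Its samples overlapped. The remaining 4 matched Metacaspase-1, which promotes the hypersensitive cell death of Arabidopsis. The highest of them (contig_10812) had 5.51, 6.60 and 5.81 in male flowers, against 15.2, 8.01 and 6.04 in female flowers. Its log2 difference was -0.72 (SE 0.40). For contig_8402, contig_10411 and contig_43092 the log2 differences were 0.24, -0.19 and 0.51, and every one of the 5 had an adjusted p of 0.49 or more with edgeR. As a class, metacaspases summed to 56.4, 95.4 and 128.5 in male flowers, against 53.6, 50.5 and 63.6 in female flowers. Male replicate 1 lay among the female samples.

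Vacuolar-processing enzymes are legumain-type proteases that mature other vacuolar proteins and have caspase-like activity. None of the 4 tested was called, and the median log2 difference was 0.23. The dominant unigene, contig_55, had a log2 difference of 0.37 (SE 0.72) and an adjusted p of 0.85. A shorter unigene of 632 bp, contig_46544, had 33.7, 84.1 and 78.7 TMM-scaled RPKM in male flowers, against 27.2, 60.9 and 97.2 in female flowers. Both overlapped, and replicate 1 was the lowest sample of each sex.

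The low-abundance vacuolar-processing enzymes had log2 differences of opposite sign. Contig_9986 had 3.30, 2.76 and 2.63 TMM-scaled RPKM in male flowers, against 0.784, 1.51 and 2.37 in female flowers, and its samples did not overlap. Contig_17826 had 1.03, 4.94 and 3.91 in male flowers, against 5.69, 15.2 and 3.24 in female flowers. The log2 differences were 0.96 (SE 0.49) and -1.31 (SE 0.72), and the adjusted p 0.45 and 0.48 with edgeR. For contig_17826 the log2 difference was -0.47 without female replicate 2. Without female replicate 3 the median of the class was 0.96, and without male replicate 1 it was 0.69. The untested contig_24966, of 448 bp, had 23 reads in all.

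Papain-like proteases include the most abundant enzymes of the plant vacuole. Of 16 members 12 were tested, none was called, and none had an unadjusted p under 0.05. Their log2 differences lay between -0.47 and 0.84, and the median was 0.21. For contig_68 (aleurain-like) and contig_1771 (RD19a-like), whose levels are given above, the log2 differences were 0.80 (SE 0.77) and 0.18 (SE 0.89), and 1.85 and 1.98 without female replicate 3. Groups did not overlap in 2 of the 12 (16.7%), against 19.4% of all tested. Male flowers were above in both, against 10.4% of all tested. In RPKM as deposited 1 of the 12 did not overlap, against 4.74%. The 2 unigenes were an RD21a-like enzyme (contig_2542) and a homolog of Xylem cysteine proteinase 1 (contig_15845), a protease that in Arabidopsis digests the contents of dying xylem cells. Both are named because of their values. The RD21a-like unigene had 203, 235 and 309 TMM-scaled RPKM in male flowers, against 108, 127 and 182 in female flowers, with an adjusted p of 0.48 by edgeR. The xylem protease unigene had 5.73, 9.64 and 8.85 in male flowers, against 4.69, 3.66 and 5.64 in female flowers. Its relative Xylem cysteine proteinase 2 (contig_5994) had 18.8, 46.1 and 34.9 in male flowers, against 21.6, 19.5 and 15.6 in female flowers, where male replicate 1 lay inside the female range.

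Among abundant papain-like enzymes, First_Contig38, which matched Cysteine proteinase 5, had 112, 192 and 307 TMM-scaled RPKM in male flowers, against 239, 278 and 199 in female flowers. A second RD21a-like unigene (contig_3577) had 65.7, 163 and 139 in male flowers, against 112, 168 and 81.3 in female flowers. In these members female replicate 3 was the lowest female sample, unlike in most of the class. The RD19a-like unigenes contig_4070 and contig_4069, which may be pieces or close copies of 1 gene, had 50.0, 30.2 and 41.5 and 10.8, 9.61 and 15.6 in male flowers, against 10.3, 17.1 and 100 and 2.97, 6.36 and 41.8 in female flowers. Female replicate 3 alone stood above the male samples in both, as it did for contig_1771.

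Female replicate 3 weighed on the median of the papain-like class more than on that of any other class. The class summed to 881, 1556 and 2187 in male flowers, against 747, 915 and 1953 in female flowers, while deposited RPKM summed to 709, 2115 and 1914 in male flowers, against 1274, 1669 and 621 in female flowers. Without female replicate 3 its median log2 difference was 1.25, and 6 of 14 tested members (42.9%) had an unadjusted p under 0.05, against 29.8% of all unigenes in that fit. All 6 were higher in male flowers, as were 5205 of the 37016 unigenes, against 5831 in female flowers. None of the papain-like members was called. Over all classes 40 of 123 members (32.5%) had such a p, 30 higher in male and 10 in female flowers. Aspartic proteases had 12 and 3, and subtilisin-like proteases 7 and 7. Nuclear photosynthesis genes, given for leaf-like tissue, had their highest TMM-scaled sum in the same library, with 3183, 1471 and 3101 in male flowers, against 688, 961 and 7902 in female flowers. Their deposited RPKM summed to 2560, 2000 and 2714 in male flowers, against 1175, 1753 and 2514 in female flowers. There female replicate 3 lay below male replicates 1 and 3. Without that library 18 of the 21 tested photosynthesis genes had an unadjusted p under 0.05, all higher in male flowers, and their median was 1.66, against -0.05 with it. Their part in the protease levels of that library was not tested.

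**Figure D3:**
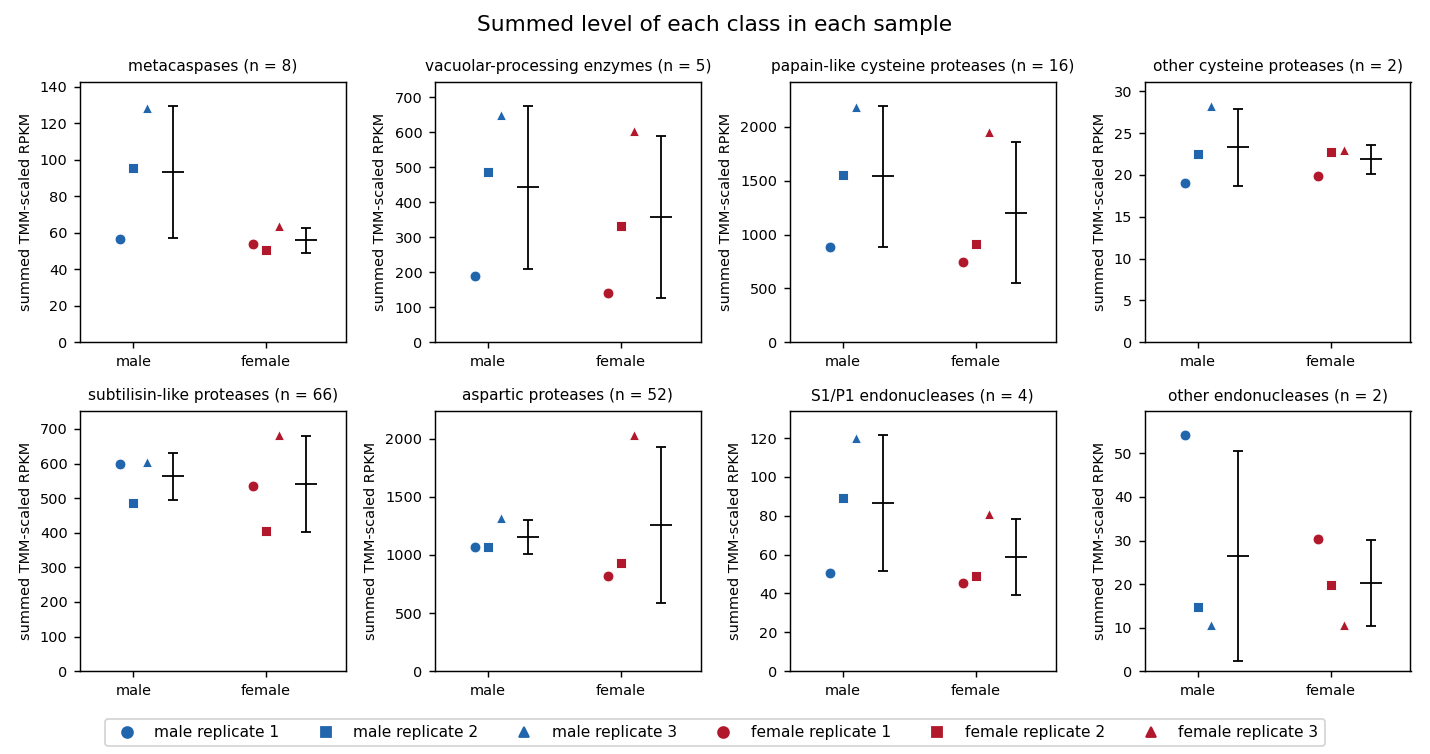
Summed TMM-scaled RPKM of each of the 8 classes in each sample, male samples in blue at the left of each panel and female samples in red, with a marker for each replicate number and the mean ± SD (n = 3) in black. Female replicate 3 lies above the other female samples in every class except the flap endonucleases, and its aspartic protease sum is 2033, against 815 and 929 in the other female samples.

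Aspartic proteases held the called member and the largest difference toward female flowers. Of 52 members 44 were tested, 1 was called, and 5 had an unadjusted p under 0.05, of which 3 were higher in male flowers. The median was 0.06. Another nepenthesin-1-like unigene, contig_224, had 49.1, 74.3 and 84.6 TMM-scaled RPKM in male flowers, against 125.5, 255.5 and 452 in female flowers. The groups did not overlap, and the female samples spread more widely than the male ones. The log2 difference was -2.0 (SE 0.57), 4.00-fold higher in female flowers, and the adjusted p was 0.20 by edgeR's quasi-likelihood test. Without female replicate 3 the log2 difference was -1.31. DESeq2 gave an adjusted p of 0.023.

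The most abundant aspartic proteases differed less. A further nepenthesin-1-like unigene (contig_706) had 277, 153.5 and 231 TMM-scaled RPKM in male flowers, against 181, 151 and 441 in female flowers. A homolog of Aspartic proteinase A1 (contig_153), a vacuolar enzyme of Arabidopsis, had 151, 237 and 298 in male flowers, against 80.7, 122 and 303 in female flowers. Both overlapped, with log2 differences of -0.23 (SE 0.56) and 0.44 (SE 0.61). Without female replicate 3 they were 0.55 and 1.33. The 5 nepenthesin-1-like unigenes included the highest and the lowest log2 difference of all 114 tested members, and contig_215 and contig_22927 lay at -0.72 and -0.42.

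The remaining 3 aspartic proteases with an unadjusted p under 0.05 are outside the naming rule, chosen for their values. Contig_11684 matched ASPARTIC PROTEASE IN GUARD CELL 2 and had 9.48, 5.71 and 7.40 TMM-scaled RPKM in male flowers, against 1.47, 1.84 and 4.62 in female flowers, without overlap. Its log2 difference was 1.59 (SE 0.51) with an adjusted p of 0.25, and without female replicate 3 it was 2.32 with an adjusted p of 0.026 (edgeR). Contig_14445 matched GUARD CELL 1, whose Arabidopsis namesake acts in stomatal closure under drought, and had 9.48, 7.85 and 16.9 in male flowers, against 29.8, 22.1 and 15.7 in female flowers. There male replicate 3 overlapped female replicate 3. The 4 GUARD CELL 2-like unigenes had positive log2 differences, of 0.21 to 1.59, while the 15 unigenes named aspartic proteinase-like protein lay between -0.58 and 0.64. The 4 homologs of CDR1, an extracellular protease of disease resistance in Arabidopsis, were all too low to be tested.

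The role of PCS1 is protective, since loss of this aspartic protease in Arabidopsis lets developing gametophytes and embryos die. Its 4 homologs were all tested. Contig_21771 had 11.9, 8.60 and 6.44 TMM-scaled RPKM in male flowers, against 3.59, 4.92 and 6.13 in female flowers, without overlap and with an adjusted p of 0.35 by edgeR. Contig_4013 had 2.06, 10.1 and 14.1 in male flowers, against 2.94, 2.97 and 4.07 in female flowers, where male replicate 1 was the lowest sample of all. Its log2 difference was 1.42 (SE 0.63) with an adjusted p of 0.39, and without male replicate 1 it was 2.01 with an adjusted p of 0.042. The other homologs, contig_10838 and contig_42833, had log2 differences of 0.58 and 0.23.

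Subtilisin-like proteases are serine proteases, mostly secreted to the cell wall. Of 66 members 41 were tested and none was called, 26 of the 41 had negative log2 differences, and the class median was -0.19. An unadjusted p under 0.05 was reached by 5, of which 2 had their higher mean in male flowers and 3 in female flowers. Names resolve little here, since 53 of the 66 had the same best match, ARA12, and 13 matched SDD1, a regulator of stomatal density in Arabidopsis. The largest difference was that of contig_12080, with 32.7, 4.03 and 6.61 TMM-scaled RPKM in male flowers, against 1.37, 1.33 and 0.813 in female flowers. All male samples lay above all female samples, but male replicate 1 lay far above the other male samples. The log2 difference was 3.58 (SE 0.81) with an adjusted p of 0.10 by edgeR, the closest to the threshold among members that were not called. Without male replicate 1 the log2 difference was 2.28 with an adjusted p of 0.043.

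Toward female flowers, contig_14044 had 13.4, 14.3 and 6.21 TMM-scaled RPKM in male flowers, against 70.1, 18.1 and 30.7 in female flowers. The groups did not overlap, and the log2 difference was -1.81 (SE 0.56) with an adjusted p of 0.24 by edgeR. Female replicate 1 carried much of that size, and without it the log2 difference was -1.11. Contig_6872, contig_2382 and contig_8550 also had an unadjusted p under 0.05 and are named for that reason, outside the rule. Contig_6872 had 3.51, 1.80 and 1.91 in male flowers, against 11.4, 10.2 and 3.31 in female flowers, where female replicate 3 lay just below male replicate 1. Contig_2382 had 2.23, 5.30 and 5.01 in male flowers, against 11.2, 9.11 and 10.1 in female flowers, and contig_8550 had 59.9, 17.7 and 23.4 in male flowers, against 7.36, 8.05 and 15.6 in female flowers. Neither of these overlapped. Their adjusted p were 0.21, 0.23 and 0.26 by edgeR, and without female replicate 3 contig_6872 had an adjusted p of 0.040.

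The most abundant subtilisin-like unigenes were contig_2163 and contig_644. Contig_2163 had 99.5, 86.7 and 110 TMM-scaled RPKM in male flowers, against 94.3, 61.2 and 178 in female flowers. Contig_644 had 82.7, 68.5 and 99.6 in male flowers, against 49.6, 39.8 and 70.3 in female flowers, where male replicate 2 lay just below female replicate 3. Contig_9910, of 9613 bp, was named subtilisin-like by SwissProt and an ankyrin repeat protein by the NR database, so its reads may not come from a protease gene alone.

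**Figure D4:**
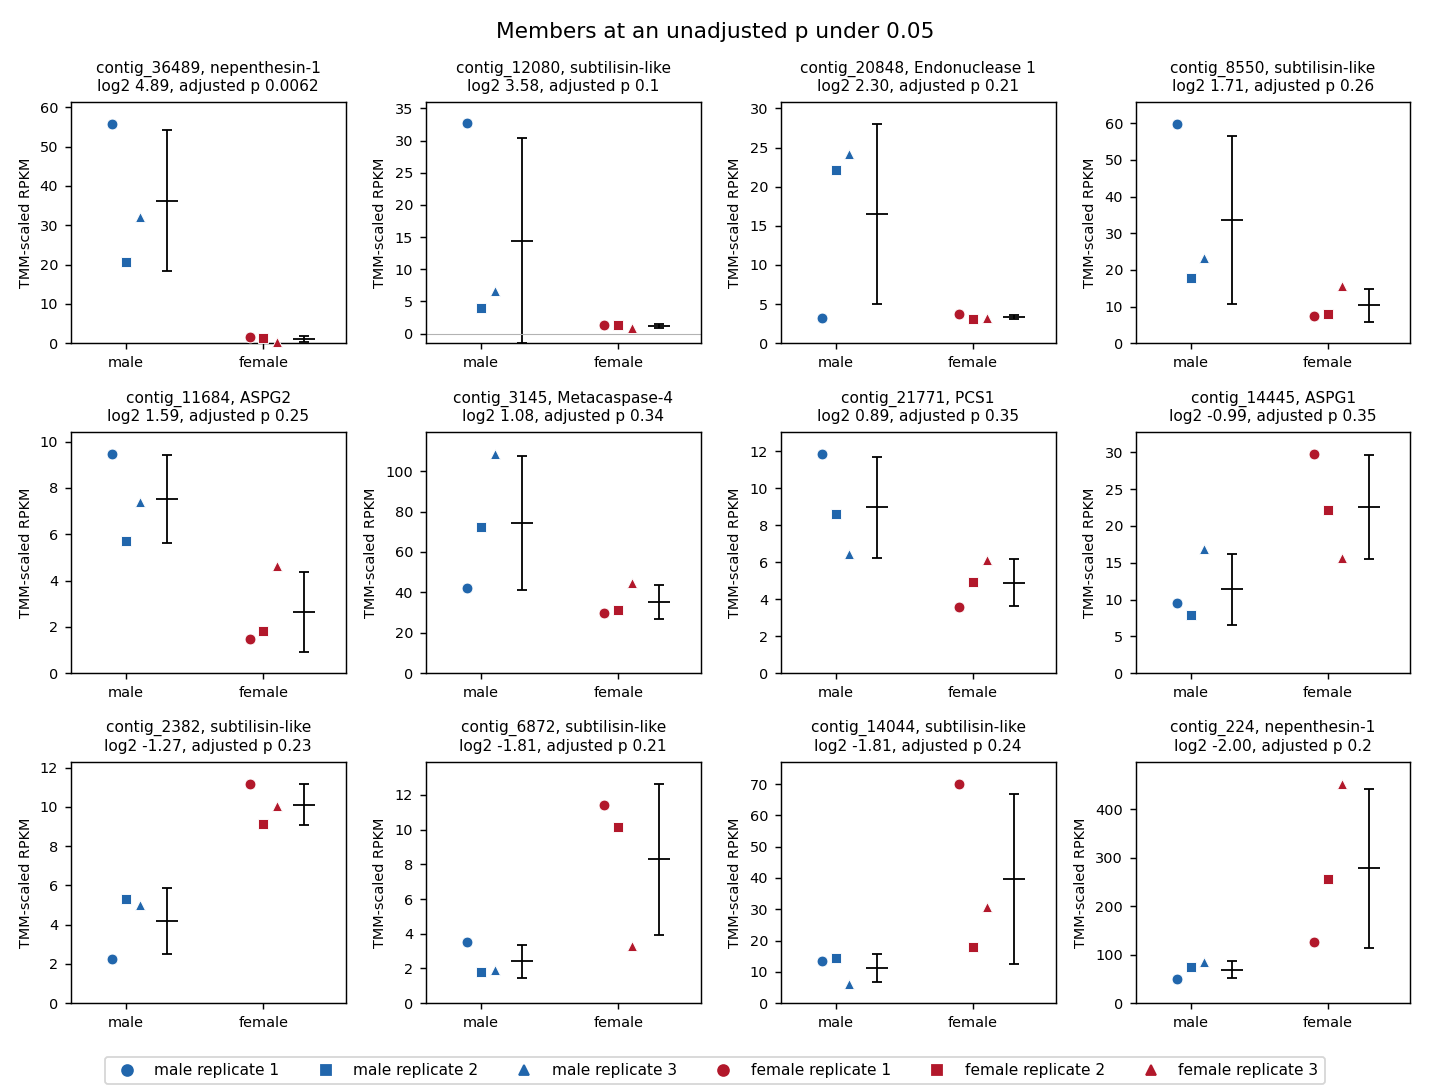
TMM-scaled RPKM of the 12 members with an unadjusted p under 0.05, ordered by log2 difference, with male samples in blue at the left of each panel, female samples in red and the mean ± SD (n = 3) in black. Only contig_36489 is called, and male replicate 1 (blue circle) is far above the other male samples of contig_12080 and contig_8550 and far below them in contig_20848.

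S1/P1 endonucleases are zinc-dependent enzymes that degrade RNA and single-stranded DNA. All 3 tested had positive log2 differences and none was called. Endonuclease 1 (contig_20848) is the homolog of the Arabidopsis nuclease BFN1, a marker of senescence and developmental cell death. It had 3.27, 22.2 and 24.1 TMM-scaled RPKM in male flowers, against 3.69, 3.08 and 3.29 in female flowers. Male replicates 2 and 3 lay far above every female sample, while male replicate 1 lay within the female range. The log2 difference was 2.30 (SE 0.67) with an adjusted p of 0.21 by edgeR's quasi-likelihood test. Without male replicate 1 it was 2.92 with an adjusted p of 0.0046, and DESeq2 on all 6 samples gave 0.025.

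Endonuclease 4 (contig_731) and Endonuclease 2 (contig_961) were the more abundant of the family. Contig_731 had 25.5, 43.9 and 57.9 TMM-scaled RPKM in male flowers, against 22.3, 24.0 and 49.5 in female flowers. Contig_961 had 20.7, 21.6 and 37.3 in male flowers, against 18.1, 21.4 and 28.3 in female flowers. Both overlapped, with log2 differences of 0.42 (SE 0.45) and 0.24 (SE 0.35), and contig_731 had 1.03 without female replicate 3. The 2 flap endonuclease unigenes, of 566 and 687 bp, had 26.3, 9.33 and 5.87 (contig_22960) and 27.9, 5.40 and 4.72 (contig_19648) in male flowers, against 15.7, 11.6 and 5.33 and 14.6, 8.26 and 5.19 in female flowers. Their 6 samples followed nearly the same order, and 2 such short unigenes may be pieces of 1 gene. ATG4 (contig_10430), which processes the autophagy protein ATG8, had a log2 difference of 0.40 (SE 0.35), and the calpain DEK1 (contig_4358), which specifies epidermis, had -0.74 (SE 0.40).

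The male samples differed from each other, and for male replicate 1 this held over all unigenes as well. It was the lowest male sample in 49.1% of the tested members, against 40.2% of all unigenes tested. It was the highest in 36.0% of the tested members, against 39.8% of all unigenes tested. Contig_36489, contig_12080 and contig_8550 were highest in male replicate 1. Among the members too low for the test, a subtilisin-like unigene (contig_39052) had 77 reads in male replicate 1 and none in any other library. The CDR1-like contig_37236 had 3.72, 0 and 0 TMM-scaled RPKM in male flowers, against 0.0509, 0.0966 and 0 in female flowers, and contig_36973, contig_36803, contig_38774 and contig_38635 were likewise read mainly in that sample. The reverse held for Endonuclease 1, for the PCS1-like contig_4013 and for the nepenthesin-2-like contig_49708, which had 0, 472 and 312 reads in male flowers, against 0, 0 and 0 in female flowers. That is 0, 11.6 and 14.2 TMM-scaled RPKM in the male samples, and over the group at least 745-fold higher in male flowers against a floor of 3 reads over the female libraries. The reads fell in 2 of 3 male libraries, so the filter left contig_49708 out, and a fit without the filter gave it an adjusted p of 0.024 with edgeR. These unigenes were grouped after their values were seen, and no test was made of the grouping.

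**Figure D5:**
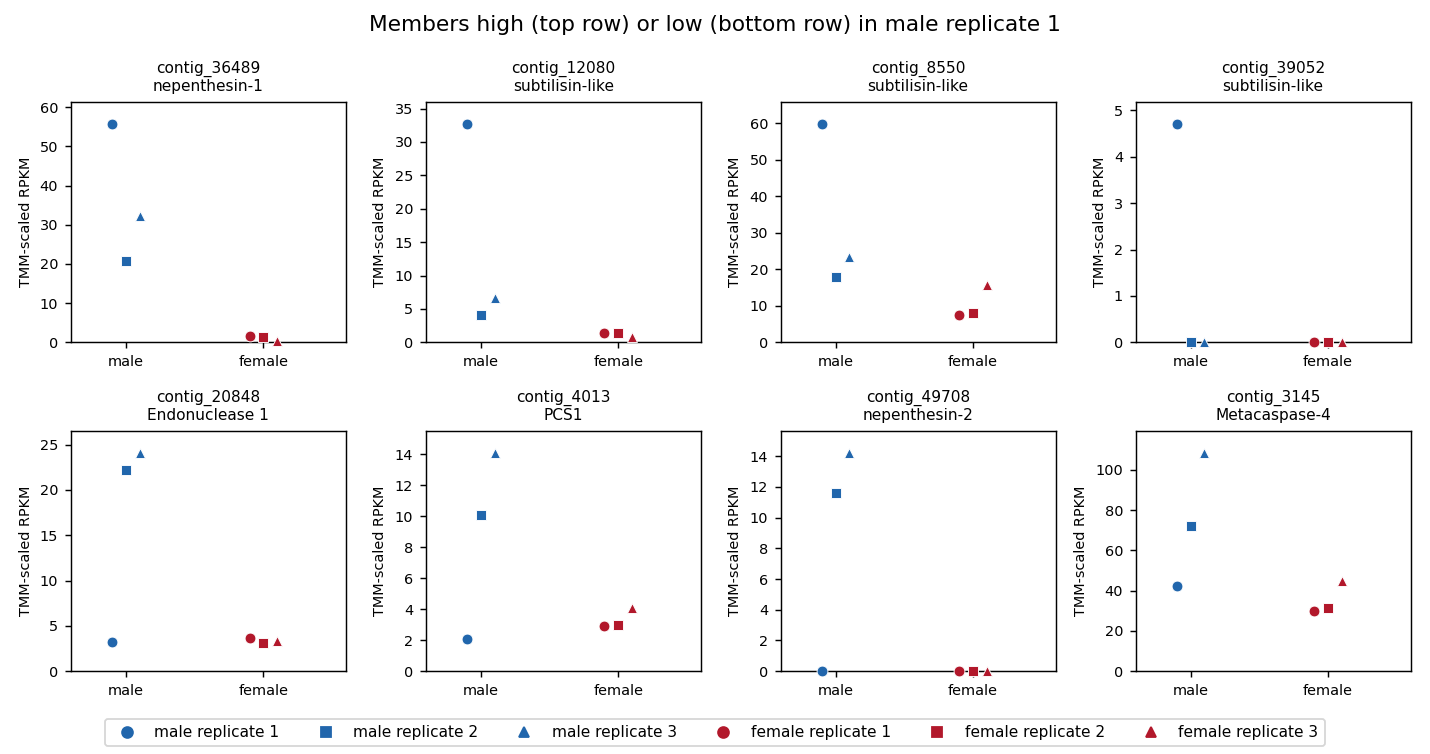
TMM-scaled RPKM of 4 members that were highest in male replicate 1 (top row) and 4 that were lowest in it (bottom row), male samples in blue at the left of each panel, female samples in red and a marker for each replicate number. Contig_49708 has 0, 11.6 and 14.2 in the male samples and 0 in all female samples, while contig_39052 has reads in male replicate 1 only.

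In all, 41 members were not tested. They were short, with a median of 635 bp against 1792 bp for the tested members, and 38 had fewer than 100 reads over the 6 libraries. No read from female replicate 3 reached 25 of them. Besides contig_39052 and contig_49708, reads of only 1 sex were seen for an ASPARTIC PROTEASE IN GUARD CELL 1-like unigene (contig_29036), with 0 reads in male flowers, against 15, 21 and 4 reads in female flowers, and for the subtilisin-like contig_54692, with 0 reads in male flowers, against 16, 19 and 0 reads in female flowers. Against the floor of 3 reads over the male libraries these were at least 4.68-fold and 4.09-fold higher in female flowers. With the filter off edgeR called neither, and DESeq2 gave contig_29036 an adjusted p of 0.0499.

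Other genes of cell death were taken by name from 6 lists. Of 10 papain-type endopeptidases with other names, 6 were tested and 1 was called, against 1.70% of all tested. This was a homolog of the KDEL-tailed endopeptidase CEP2 (contig_21595), whose relative CEP1 acts in tapetal cell death of Arabidopsis. It had 129, 24.2 and 30.2 TMM-scaled RPKM in male flowers, against 1.15, 1.27 and 0.928 in female flowers. Male replicate 1 was again the highest, as for contig_36489. The log2 difference was 5.74 (SE 0.78) with an adjusted p of 0.0091 by edgeR, and 0.053 and 0.059 without female replicates 1 and 2. Without male replicate 1 the log2 difference was 4.71. The untested homolog of CEP1 itself (contig_28021) had 0.385, 1.48 and 0.835 in male flowers, against 0.185, 0.300 and 2.42 in female flowers, with overlap. Among the untested, 2 unigenes matching vignain, a castor bean enzyme of this type, were low in male replicate 1. Contig_46327 had 0.256, 7.75 and 22.2 in male flowers, against 0.105, 0.199 and 0 in female flowers, and contig_45864 had 0, 5.33 and 16.6 in male flowers, against 0.0576, 0.0873 and 0 in female flowers. Without male replicate 1 their log2 differences were 6.79 and 7.31 with adjusted p of 0.0066 and 0.0065 by edgeR. Without a female library the adjusted p was 0.082 to 0.46. DESeq2 called 3 of the 10 on this list, against 3.13% of all unigenes. With a library left out 0 to 3 were called, against 0.906% to 2.62% of all unigenes tested. The tested vignain matches contig_30610 and contig_27488 had log2 differences of 1.11 and -0.36 and were not called. The untested contig_47518, also matching vignain, had 1, 6 and 2 reads in male flowers, against 2, 14 and 0 reads in female flowers.

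Among 8 nucleases of other families, 6 were tested and 1 was called, against 1.70% of all tested. Ribonuclease 3 (contig_20257), of the T2 family, had 7.95, 11.2 and 16.4 TMM-scaled RPKM in male flowers, against 1.82, 1.48 and 2.87 in female flowers. The groups did not overlap, and the log2 difference was 2.60 (SE 0.46) with an adjusted p of 0.033 by edgeR. That call was lost without any of male replicates 2 and 3 and female replicates 1 and 2, with adjusted p of 0.12 to 0.19. Another unigene named Ribonuclease 3 (contig_3922) had 21.65, 10.71 and 11.13 in male flowers, against 11.81, 11.53 and 10.85 in female flowers. It overlapped and was not called, with a log2 difference of 0.35. Of 53 serine carboxypeptidases 50 were tested and 3 were called (6.0%, against 1.70% of all tested), all higher in male flowers, while the list median was -0.21. With a library left out 0 to 4 of them were called.

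Of 31 genes that restrain or regulate cell death, 25 were tested and 1 was called (4.00%, against 1.70% of all tested), a homolog of the animal Programmed cell death protein 4 (contig_37419), with 12.6, 6.77 and 6.24 TMM-scaled RPKM in male flowers, against 0.0365, 0 and 0 in female flowers. Another unigene of that name (contig_506) had 40.13, 41.15 and 49.07 in male flowers, against 23.45, 23.35 and 48.19 in female flowers. It overlapped and was not called, with a log2 difference of 0.46. The median of the list was 0.19, and 17 of the 25 had positive log2 differences. In 6 of the 25 the sexes did not overlap, all with male flowers above, against 10.4% of all tested. Both LSD1 unigenes, named after a zinc finger repressor of cell death in Arabidopsis, had values without overlap. Contig_7662 had 28.7, 42.8 and 34.0 in male flowers, against 13.5, 15.1 and 24.7 in female flowers, with an adjusted p of 0.31, and contig_16719 had 26.1, 32.7 and 30.1, against 13.7, 15.0 and 18.8, with an adjusted p of 0.26 (edgeR). None of 22 tested autophagy genes was called, none had an unadjusted p under 0.05, and their median was 0.10. Without female replicate 3 the unadjusted p was under 0.05 in 7 of 22, against 29.8% of all unigenes in that fit, and the median was 0.59. None of 4 tested protease inhibitors was called, nor did any reach an unadjusted p under 0.05, with a median of 0.13. That rested on female replicate 3, without which all 4 reached an unadjusted p under 0.05, higher in male flowers, with a median of 0.79 and still no call.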

How the data were processed

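RNA of 3 male and 3 female flower samples at stage 7 was sequenced. The authors removed adapters and poor reads, assembled unigenes de novo with CLC Genomics Workbench and CAP3 and deposited read counts and RPKM values for each unigene. No counting program is named (not given in the sources used here). Columns marked an and gy, for androecium and gynoecium, were taken as the male and female flower samples of the same number. Recomputed RPKM differed from the deposited RPKM by at most 4.73e-08 in relative terms, 7 lines without a unigene were left out, and 0 sample columns were unused.

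Counts were fitted in R 4.3.3 with edgeR 4.0.16 (filterByExpr, TMM scaling, quasi-likelihood F test, Benjamini-Hochberg adjustment over 29327 unigenes), limma 3.58.1 and DESeq2 1.42.0. Figures were drawn with matplotlib 3.10.9, and tables made with scipy 1.17.1, pandas 2.3.3 and numpy 2.4.6 in Python 3.11.15. The SE was derived from the F statistic and the log2 difference. The authors named DEGseq on RPKM, which takes no account of replicates and was not run. The biological coefficient of variation was 51.0%. In simulated counts with 28295 unigenes tested, the test called 24.0% of unigenes changed by 2 on the log2 scale and 98.0% of those changed by 4, and 4.69% of its calls were false. The simulated counts followed the trend of spread with level, without a spread particular to each unigene. They held no outlying library such as female replicate 3, so these shares may not carry over to the data.

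Members and lists were chosen with earlier results of these data known. Named were called members, in each class the 2 most abundant and the 2 with the largest log2 difference at an unadjusted p under 0.05, and every tested metacaspase, vacuolar-processing enzyme and S1/P1 endonuclease. Names come from homologs, and unigenes of 1 family may share reads or be pieces of 1 gene, so that single unigenes are uncertain. The 6 carpel and ovule genes served as a further check, with 5 tested and none called, and sums of 25.3, 17.4 and 19.4 in male flowers, against 29.5, 27.6 and 18.9 in female flowers. These sums overlapped. The untested one, matching SUPERMAN (contig_44730), had 2, 1 and 2 reads in male flowers, against 157, 241 and 0 reads in female flowers. Without female replicate 3 its log2 difference was -4.56 with an adjusted p of 0.019 by edgeR. At an unadjusted p under 0.05 there were 0 of the 5 carpel and ovule genes, 1 of the 12 tapetum genes and 0 of the 21 photosynthesis genes tested, where the last count was 18 without female replicate 3.

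Buds of both sexes came from the same plant, and residuals after removing each sex's mean correlated by 0.19, 0.13 and 0.37 for samples of the same number, against -0.32 to 0.16 for other pairs. The lowest value for the same number, 0.13, was below the highest for other pairs, 0.16, so these correlations do not settle whether the numbers pair the samples. Pairing by number is not stated in the sources, and a fit with the replicate number as a block was an alternative. Further alternatives were median-of-ratios scaling, no TMM, no filter, DESeq2, limma on log2 values of RPKM plus 1 or plus 0.1, no fold threshold and each library left out. Intervals and floors cover counting error only.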

Additional observations from a re-analysis of the deposited data

How the results depend on the processing

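The call of contig_36489 held under every alternative tried, with adjusted p of 1.35e-13 to 0.045, and the replicate block changed no call, with 1 member called. The number of members called was 3 of 155 without the filter, against 1.43% of all unigenes, and 7 of 155 with DESeq2, against 3.13%. With a library left out it was 1 to 5, against 0.906% to 2.62% of all unigenes tested. Members called higher in male flowers were 3 without the filter, 5 with DESeq2 and 1 to 5 with a library left out. Those called higher in female flowers were 2 with DESeq2 and 0 to 1 with a library left out. The 5 called members came without male replicate 1 (with Endonuclease 1, contig_4013, contig_12080 and contig_49708 added), 3 without female replicate 3 and 2 without male replicate 2. These were 5 of 122 tested members, against 2% of all unigenes tested, 3 of 123, against 2.62%, and 2 of 116, against 1.098%. Over all unigenes DESeq2 called 1755 and edgeR 499. Scaling by library totals without TMM moved the median log2 difference of all unigenes tested to -0.41, against -0.09 with TMM, and that of the members to -0.25, against 0.06. On RPKM as deposited 7 members did not overlap, against 18.

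Uncalled log2 differences near 0 changed sign. Without TMM they were -0.020 for contig_961, -0.37 for contig_22960 and -0.32 for contig_19648, which was -0.045 with limma and a pseudocount of 1. With a library left out they ran from -0.28 to 1.98 for contig_1771, -0.028 to 1.19 for contig_55, -0.50 to 0.55 for contig_706, -0.47 to 0.49 for contig_2163, -0.27 to 0.73 for contig_46544, -0.020 to 0.89 for contig_8402, -0.42 to 0.073 for contig_10411, -0.0061 to 1.40 for contig_43092, -0.40 to 0.79 for contig_22960 and -0.77 to 0.90 for contig_19648. The flap endonucleases (contig_22960, contig_19648) were lowest without male replicate 1, contig_43092 was highest without female replicate 2, and contig_1771, contig_55, contig_706, contig_2163, contig_46544 and contig_8402 were highest without female replicate 3. The class median of the flap endonucleases was -0.34 without TMM and -0.58 without male replicate 1, and that of the other cysteine proteases -0.56 without TMM. Of 351 values of single unigenes under the alternatives, 324 kept their direction and side of the threshold, 7 passed it and 20 changed sign. Of 72 medians 10 changed sign. Besides those given, the median of the members was -0.04 without female replicate 1, where vacuolar-processing enzymes had -0.15, papain-like proteases -0.14 and aspartic proteases -0.04. Papain-like proteases had -0.00041 without female replicate 2, subtilisin-like proteases 0.03 without male replicate 2 and aspartic proteases -0.18 without TMM. The depth of female replicate 3 limits members with few reads.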

Other observations

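Enzymes of the same families under other SwissProt names, a list made after the data were seen, also held genes called between the sexes. Of 14 unigenes named cucumisin, xylem serine proteinase, bromelain or ananain, 11 were tested and 3 were called (27.3%, against 1.70% of all unigenes tested), all higher in male flowers. Fruit bromelain (contig_36766), a papain-type protease named after pineapple, had 60.9, 86.2 and 58.6 TMM-scaled RPKM in male flowers, and no read in any of the 3 female samples. A xylem serine proteinase 1 homolog (contig_36541), of the subtilisin family, had 95.1, 24.8 and 36.1 in male flowers, against 0.0140, 0 and 0 in female flowers. A second homolog of it (contig_31340) had 92.0, 32.6 and 44.2 in male flowers, against 0.0206, 0.0156 and 0.210 in female flowers. Both had their highest male value in replicate 1, as contig_36489 and contig_12080 had. For these 3 the adjusted p with each library left out stayed at or below 0.014 by edgeR's quasi-likelihood test.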
